A study of Mus musculus with 48 samples.

Results

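The genes described here are 8 genes of cholesterol metabolism, Hmgcs1, Idi1, Fdft1, Sqle, Lss, Cyp51, Dhcr7 and Insig1, taken by their symbols from the 2 bulk RNA-seq tables of the study and by Ensembl ID from its single-cell table. All 8 were found among the 22173 genes of the gonad stage table, the 13682 genes of the table of embryonic stem cell (ESC) derived cells and the 32285 genes of the single-cell table, and all 8 passed the filters on low values. They came from C57BL/6 mice and mouse ESCs in 3 experiments. Gonadal somatic cells (GSCs), the cells of the gonad that are not germ cells, were separated from female gonads on the embryonic days E12.5, E13.5 or E16.5, or at 6 weeks after birth (P6w), with 2 libraries a stage. Female ESCs kept on fibronectin were controls (Con) or received vitamin C (Vc), the retinoic acid receptor alpha agonist AM580, or both (V580), and were sampled at 24 h and 48 h with 2 libraries each, and V580 cells were sampled again on days 4, 6, 8 and 10 (V580_D4 to V580_D10) with 3 libraries each, beside 3 libraries of E12.5 gonadal cells (E12.5_GC) whose label names mice as the source but no sex. V580_D6 cells also gave 1 droplet-based single-cell sample. The labels place Con at 24 h and 48 h like the treated cells. The study's text describes its controls as cells before induction, so how and for how long Con was cultured is uncertain, which bears on the rise between its times and on every effect against Con. The labels do not say whether libraries of a group came from separate cultures or animals, so the p-values below measure only the spread between these libraries, which may be technical.

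Cholesterol is made from acetyl-CoA in a single pathway. HMG-CoA synthase (Hmgcs1) stands near its entry. Isopentenyl diphosphate isomerase (Idi1) balances the isoprenoid building blocks, squalene synthase (Fdft1) commits them to sterols, squalene epoxidase (Sqle) and lanosterol synthase (Lss) close the ring system, and lanosterol demethylase (Cyp51) and 7-dehydrocholesterol reductase (Dhcr7) finish the molecule. Insig1 is not an enzyme. It holds the SREBP transcription factors in the endoplasmic reticulum when sterols are plentiful, and its own gene is a target of SREBP. SREBP2 (Srebf2) drives the synthesis genes when sterols are scarce. None of the 8 genes takes up cholesterol, so uptake is described through a separate list of 11 genes of receptors, transport and their control, among them Scarb1, Vldlr, Lrp1, Lipa and Npc1. The other 14 enzymes of the pathway form a second list, and gonadal cells are of interest here because cholesterol is the substrate of the steroid hormones.

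The 8 genes lie on 6 chromosomes and are all annotated as protein-coding (GRCm38, GENCODE vM21). Hmgcs1 spans chr13:119690379-119708260 and Idi1 chr13:8885501-8892451, both on the plus strand. Insig1 spans chr5:28071363-28078662 on the plus strand and Cyp51 chr5:4081145-4104746 on the minus strand. Sqle (chr15:59315077-59331192), Lss (chr10:76531588-76557138) and Dhcr7 (chr7:143823145-143848410) are on the plus strand and Fdft1 (chr14:63145150-63179578) is on the minus strand. Exons of Hmgcs1, Idi1, Fdft1, Lss and Cyp51 share positions with a gene on the opposite strand (Gm48342, Gm48574, Ctsb, 4930483K19Rik and Akap9), and whether reads were counted by strand was not stated, so reads of these pairs cannot be told apart.

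Promoter windows of 300 bases, from 250 before to 50 after a transcription start (RefSeq, GRCm38.p6), were at hand for 6 of the 8 genes, with Sqle and Fdft1 named only. The windows of 4 genes are shown because the levels of these genes, described below, parted from each other between conditions, stages or cell clusters. They are printed 5′ to 3′ on the strand of the gene, and capitals mark the letters TCACNCCA, a form of the sterol regulatory element bound by SREBP, and CCAAT, read on either strand (ATTGG on the other). The windows are chr13:119690101-119690400 (Hmgcs1, plus), chr13:8885356-8885655 (Idi1, plus), chr5:4104648-4104947 (Cyp51, minus) and chr5:28071162-28071461 (Insig1, plus).
Hmgcs1: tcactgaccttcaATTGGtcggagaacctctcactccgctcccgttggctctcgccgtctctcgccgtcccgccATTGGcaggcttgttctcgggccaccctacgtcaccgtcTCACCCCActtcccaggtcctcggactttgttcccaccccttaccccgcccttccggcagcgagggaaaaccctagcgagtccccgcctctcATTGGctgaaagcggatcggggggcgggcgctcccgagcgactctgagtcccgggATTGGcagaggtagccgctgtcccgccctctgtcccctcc
Idi1: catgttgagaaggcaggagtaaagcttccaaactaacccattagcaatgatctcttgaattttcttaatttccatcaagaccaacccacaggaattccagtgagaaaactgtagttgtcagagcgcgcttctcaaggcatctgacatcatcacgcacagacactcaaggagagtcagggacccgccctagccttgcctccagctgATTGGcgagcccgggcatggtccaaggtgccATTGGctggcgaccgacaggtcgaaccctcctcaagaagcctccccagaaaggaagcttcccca
Cyp51: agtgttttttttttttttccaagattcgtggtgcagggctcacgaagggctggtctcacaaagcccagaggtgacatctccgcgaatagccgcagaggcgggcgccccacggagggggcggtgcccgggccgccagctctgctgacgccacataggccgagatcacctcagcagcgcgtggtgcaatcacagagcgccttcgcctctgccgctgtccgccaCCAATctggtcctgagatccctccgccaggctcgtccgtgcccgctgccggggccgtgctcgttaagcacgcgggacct
Insig1: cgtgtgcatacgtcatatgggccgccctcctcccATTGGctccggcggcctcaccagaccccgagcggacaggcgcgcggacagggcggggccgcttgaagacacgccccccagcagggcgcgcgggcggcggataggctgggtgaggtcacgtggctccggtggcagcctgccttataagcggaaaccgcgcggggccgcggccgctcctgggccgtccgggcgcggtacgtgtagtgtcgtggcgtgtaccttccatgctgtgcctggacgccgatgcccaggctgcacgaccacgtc
TCACNCCA, on either strand, was in 1 of the 8 windows that the table holds for the 6 genes (3 for Dhcr7 and 1 for each of the others), that of Hmgcs1, where it read TCACCCCA at bases 114 to 121 counted from the 5′ end, and in 4.36% of the 32851 windows of the table. CCAAT was in 6 of the 8 windows and in 37.4% of all windows, and the GC box GGGCGG was in 7 of the 8 and in 35.7%. The E-box CACGTG was in 2 of the 8, 1 of Dhcr7 and that of Insig1, and in 7.15% of all windows. No 2 of these motifs share letters in the printed windows. These matches describe the letters in the windows and are not evidence of binding.

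The 8 stage libraries held 12694769 to 22259044 counted reads, and the least counted member, Idi1, still had 62 to 131 reads in each. The 31 libraries of ESC-derived cells and E12.5_GC held an estimated 16442639 to 28312706 fragments. Levels are in FPKM (fragments scaled to gene length and library size) for the latter and in CPM (counts scaled to library size) for the stages. A gene was called where its adjusted p was below 0.05 over all genes tested, by edgeR's quasi-likelihood test for counts and by limma on log2(FPKM + 1) for FPKM, both with Benjamini-Hochberg adjustment, and fold changes from FPKM are on the log2(FPKM + 1) scale, which understates changes of low genes. In bulk RNA, fewer cells of a type and less RNA per cell cannot be told apart.

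The labelled cell types were checked against marker lists. All 7 gonadal somatic markers were detected in every GSC library, with sums of 2216 and 2279 CPM at E12.5, 1747 and 1722 in E13.5 libraries, 1442 and 1513 in E16.5 libraries and 1091 and 986.1 in P6w libraries, and Amhr2 the most abundant. Although these libraries are labelled as female gonads, the 4 Y-linked genes summed to 10.5 and 9.41 CPM in the E12.5 libraries, against at most 0.225 CPM in any of the other 6. In the ESC-derived cells, the 5 pluripotency markers, Dppa5a the most abundant, summed to 3271 and 3575 FPKM in Con at 24 h, 1693 and 1739 at 48 h, 190.5 to 216.5 in V580_D4, and 6.49 to 11.9 on days 6 to 10. The 7 gonadal somatic markers summed to 510.6, 587.3 and 548.9 FPKM in E12.5_GC and to no more than 136.3 on any V580 day, so the V580 cells are called by their day and not by a cell type.

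All 8 genes were called higher at 48 h than at 24 h in Con. For each member this difference exceeded every effect of a treatment at 24 h or 48 h in size. V580 cells were also higher at 48 h, with Insig1 at a mean of 12.1 FPKM at 24 h and 44.5 at 48 h and Dhcr7 at 4.87 and 21.3, differences that were not tested. Insig1 stood at 12.2 and 11.7 FPKM in the Con libraries at 24 h and at 32.1 and 31.3 at 48 h, a 2.53-fold rise (log2 1.34 ± 0.05 SE, limma adjusted p = 3.68e-12). Dhcr7 went from 5.23 and 5.51 FPKM to 15.2 and 15.6, 2.58-fold (adjusted p = 8.56e-11, limma). Hmgcs1 went from 22.7 and 24.3 FPKM to 45.6 and 47.96, 1.95-fold (adjusted p = 6.53e-11, limma). For each of the 3 genes both later libraries lay far above both earlier ones. Idi1 rose 2.04-fold, Cyp51 1.64-fold, Lss 1.59-fold, Sqle 1.58-fold and Fdft1 1.45-fold, the smallest (log2 0.54 ± 0.05, adjusted p = 1.97e-07, limma). Of all genes tested, 32.4% were called higher in this comparison, and the median log2 change was 0.84 over the members and 0.00 over all genes. Leaving out any 1 library left all 8 called. The summed pluripotency markers were lower at 48 h. The sum of the 6 interstitial markers, with Col1a1 the most abundant, fell from 105.1 and 95.34 FPKM to 23.98 and 25.12. Dcn on that list went the other way, from 0.479 and 0.521 FPKM to 2.14 and 2.06. The part of either sum in the rises of the 8 genes was not tested. Other enzymes of the pathway went the same way, with 11 of 13 tested called higher and 1 lower. Msmo1, a sterol C4 demethylase, rose by 0.79 ± 0.07 on the log2 scale, whereas Ebp, a sterol isomerase, fell by 0.90 ± 0.09. In the uptake list 4 of 10 were called higher and 2 lower, with the sterol carrier gene Stard4 (0.66 ± 0.08) among the first and Lrp1 (-0.46 ± 0.16) among the latter. Of the SREBP regulators, Srebf1, Mbtps1 and Srebf2 were among the 4 of 6 called higher, at log2 0.40, 0.39 and 0.28.

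**Figure D1:**
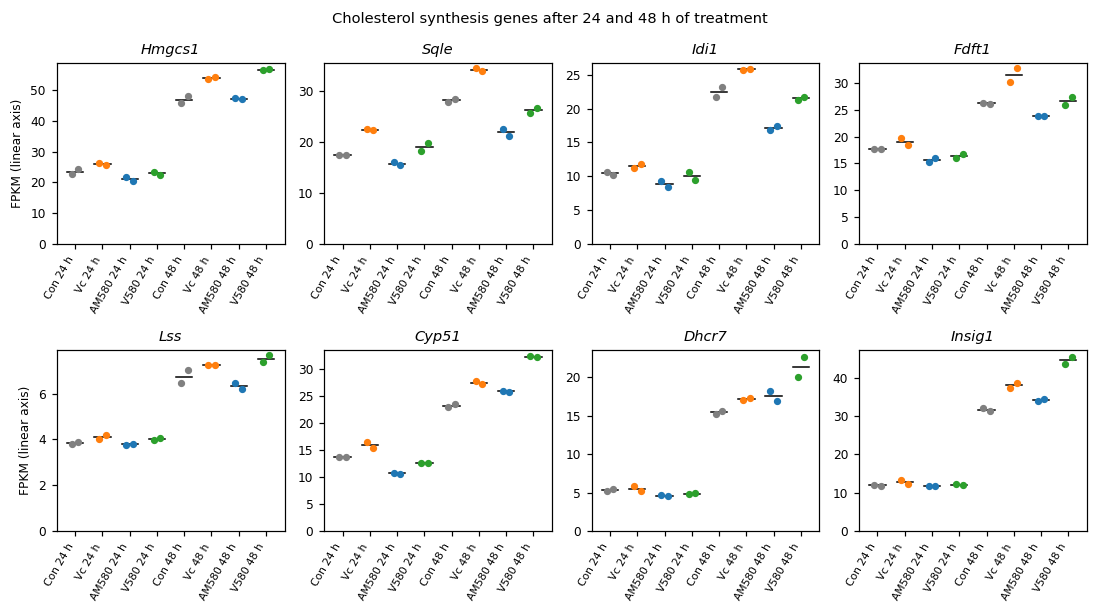
FPKM (vertical axis, linear, starting at 0) of the 8 genes in every library of Con, Vc, AM580 and V580 at 24 h and 48 h; points are libraries and bars are group means, with 2 libraries a group. The Con libraries alone separate the times, as for Insig1 with 12.2 and 11.7 FPKM at 24 h and 32.1 and 31.3 at 48 h, and at 48 h V580 is highest for Insig1, Cyp51 and Dhcr7 while Vc is highest for Sqle and Idi1.

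At 24 h, the treatments had small effects on the 8 genes. Sqle rose with Vc, from 17.4 and 17.5 FPKM in Con to 22.5 and 22.3, 1.27-fold (log2 0.34 ± 0.05, adjusted p = 0.000234, limma). Cyp51 stood at 13.7 and 13.8 FPKM in Con, 16.502 and 15.4 with Vc, 10.8 and 10.6 with AM580 and 12.517 and 12.6 with V580, so the 4 groups did not overlap. It was called higher with Vc (log2 0.20, adjusted p = 0.00498) and lower with AM580 (log2 -0.33 ± 0.04, adjusted p = 4.39e-05, both limma). Vc raised 3 of the 8, Sqle, Cyp51 and Hmgcs1 (0.14), and lowered none, where 7.57% of all genes tested were called higher. Hmgcs1 was no longer called without Con replicate 1, at 0.09, or without Vc replicate 1 or 2, at 0.13 and 0.15. AM580 lowered 4, Cyp51, Idi1 (-0.22), Fdft1 (-0.17) and Hmgcs1 (-0.14), and raised none, where 7.16% of all genes were called lower. Only Cyp51 of the 4 was called under every omission of a library. Fdft1 lost its call under each of the 4 omissions, Hmgcs1 without AM580 replicate 1 (-0.18), AM580 replicate 2 (-0.10) or Con replicate 2 (-0.09), and Idi1 without AM580 replicate 2 (-0.15) or Con replicate 1 (-0.19). Under V580, Cyp51 was the only member called, lower by 0.12 (adjusted p = 0.0343, limma), where 15.5% of all genes were called lower, and each omission of a library of that comparison removed the call. No member was called higher with V580 by limma, 1 at an unadjusted p below 0.05 (Sqle, 0.11), and none by edgeR on recovered reads. Against AM580, V580 cells had more Sqle (0.25, adjusted p = 0.0018) and more Cyp51 (0.21, adjusted p = 0.00275, limma), 2 of the 8, where 7.44% of all genes were called higher. Of 13 other enzymes tested at 24 h, 2 were called higher and none lower with Vc, 1 higher and 1 lower with AM580, and 2 higher and 1 lower with V580. Mvk and Pmvk, the mevalonate and phosphomevalonate kinases, were called higher with Vc (0.29 each), and Ebp was called higher with AM580 (0.41).

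At 48 h, V580 cells held more of every member than AM580 cells. The largest difference was in Insig1, which stood at 34.0 and 34.5 FPKM with AM580 and 43.6 and 45.5 with V580 (log2 0.37 ± 0.05, 1.29-fold, adjusted p = 6.95e-05, limma). Cyp51 stood at 26.0 and 25.8 FPKM with AM580 and 32.4 and 32.2 with V580 (log2 0.31, adjusted p = 9.72e-05, limma), and Idi1 at 16.9 and 17.4 against 21.3 and 21.8 (0.31, adjusted p = 0.00185, limma). In all 3 the libraries of the groups were apart. The remaining members were higher by 0.16 (Fdft1) to 0.27 (Dhcr7) on the log2 scale. All 8 were called, where 8.51% of all genes tested were called higher, and the members' median was 0.26. Fdft1 was not called under any omission of 1 library (0.12 to 0.19), Lss was not called without AM580 replicate 2 or V580 replicate 2 (0.19 each), and Dhcr7 was not called without AM580 replicate 2 (0.22) or V580 replicate 2 (0.18), so that 5 to 7 of the 8 stayed called. With all 31 libraries in one model 4 of the 8 were called.

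Vc alone at 48 h raised 6 of the 8 genes, where 6.37% of all genes were called higher, and Lss (0.09) and Dhcr7 (0.15) were not called. Sqle, for example, stood at 27.9 and 28.5 FPKM in Con and 34.5 and 33.9 with Vc (log2 0.27, 1.21-fold, adjusted p = 0.00137, limma), and Insig1 at 32.1 and 31.3 against 37.3 and 38.7 (0.26, adjusted p = 0.00248, limma). Cyp51 rose by 0.23, Fdft1 by 0.26, Hmgcs1 by 0.20 and Idi1 by 0.20. All Vc libraries lay above all Con libraries in these 6 genes. The call of Idi1 was lost under each of the 4 omissions of a library (0.15 to 0.24), that of Hmgcs1 without Con replicate 1 (0.17) or Vc replicate 2 (0.19), and that of Fdft1 without Vc replicate 2 (0.20), which left 3 to 5 called. Of the other enzymes 4 of 13 were called higher and none lower, among them Nsdhl (0.34 ± 0.07) and Msmo1 (0.30 ± 0.07), which remove the C4 methyl groups. In the uptake list Scarb1 (0.23 ± 0.06), the HDL receptor, was called higher.

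AM580 alone at 48 h split the members. Sqle stood at 27.9 and 28.5 FPKM in Con and 22.7 and 21.2 with AM580 (log2 -0.35, adjusted p = 1.45e-05, limma). Idi1 stood at 21.6 and 23.2 FPKM in Con and 16.9 and 17.4 with AM580 (-0.37, adjusted p = 9.63e-05, limma), and both AM580 libraries were below both Con libraries for the 2 genes. Fdft1 was also called lower (-0.13), although under each omission of a library it was not. Cyp51 (0.15, adjusted p = 0.00503) and Dhcr7 (0.17, adjusted p = 0.0306, limma) were called higher, and Dhcr7 was not called without AM580 replicate 1 (0.12) or without Con replicate 1 (0.15) or 2 (0.19). Over all genes 31.2% were called lower and 25.7% higher, so counts of 3 and 2 of 8 were near what any genes gave. With both compounds, 5 members were higher than in Con, Insig1 (0.48 ± 0.05, 1.39-fold, adjusted p = 7.57e-07), Cyp51 (0.46 ± 0.04, 1.38-fold, adjusted p = 2.54e-07), Dhcr7 (0.44, 1.35-fold), Hmgcs1 (0.27, 1.21-fold) and Lss (0.14), where 25.9% of all genes were called higher (limma). Lss was not called without Con replicate 1 (0.09) or V580 replicate 1 (0.17) or 2 (0.11). No member was called lower by limma with V580 at 48 h, 1 at an unadjusted p below 0.05 (Sqle, -0.10) and none by edgeR on recovered reads, and with each library centred on its median Sqle was called lower, at -0.12. Of the other enzymes 9 of 13 were called higher with V580 and none lower, with Ebp (0.76 ± 0.09) and Nsdhl (0.43 ± 0.07) in front. The SREBP regulators Srebf1 (0.49), Mbtps2 (0.36) and Scap (0.14) were among 4 of 6 called higher. The fatty acid synthesis list, which also holds SREBP targets, had 5 of 8 called higher, with Scd2 (1.03), Fads1 (0.96) and Scd1 (0.92) leading. The pluripotency markers, most of whose sum was Dppa5a, summed to 2448 and 2607 FPKM with AM580 and 2119 and 2020 with V580 at 48 h, above Con and Vc (1680 and 1821), and the 7 extraembryonic endoderm markers in the table, with Dab2 the most abundant, to 22.62 and 21.88 with AM580, 13.24 and 11.35 with V580 and 5.387 and 6.018 in Con. Pou5f1 went the other way from the pluripotency sum, at 182 and 195 FPKM with AM580 and 189 and 185 with V580 against 451 and 461 in Con. The part of these markers in the differences was not tested.

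The effect of a treatment itself changed from 24 h to 48 h for some members. The AM580 effect on Cyp51 turned from a loss at 24 h to a gain at 48 h (difference of log2 effects 0.49 ± 0.06, adjusted p = 1.68e-05, limma), that on Dhcr7 moved by 0.35 ± 0.09 and that on Sqle by -0.21 ± 0.06, so 2 members shifted upward and 1 downward, 3 of 8 called against 35.0% of all genes called in either direction. For V580 the shift was upward in 4 members, Cyp51 (0.58), Dhcr7 (0.56), Insig1 (0.46) and Hmgcs1 (0.30), and downward in Sqle (-0.22), 5 of 8 called against 33.9% of all genes in either direction. The call of Sqle was lost for AM580 without AM580 24 h replicate 1 (-0.19), AM580 48 h replicate 2 (-0.17) or Con 48 h replicate 2 (-0.20), and for V580 without Con 48 h replicate 2 (-0.20), V580 24 h replicate 2 (-0.16) or V580 48 h replicate 1 (-0.19). For Vc, limma called a change between the times in none of the 8, where 2.9% of all genes were called; at an unadjusted p below 0.05 there were 2 (Fdft1 0.16 and Insig1 0.16) and by edgeR on recovered reads 0. The V580 effect was also set against the sum of the Vc and AM580 effects on the log2 scale. The gaps ranged from -0.09 (Sqle) to 0.03 (Idi1) at 24 h and from -0.10 (Fdft1) to 0.12 (Lss) at 48 h, and limma called none of the 8 at either time, with 0 at an unadjusted p below 0.05 and 0 by edgeR on recovered reads, where 0.0376% and 3.61% of all genes were called. The standard errors of these gaps, 0.06 to 0.09, are as large as many of the gaps, so departures of that size were not detectable here.

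**Figure D2:**
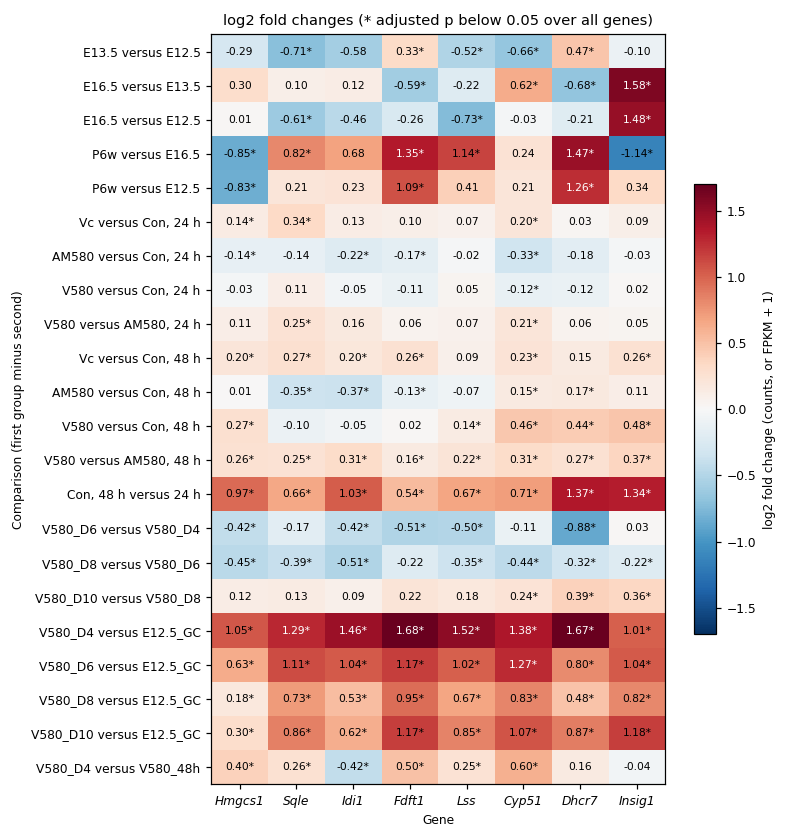
Log2 fold changes (colour and printed value) of the 8 genes, in columns, for 22 comparisons, in rows, from limma on log2(FPKM + 1) or, for the stages, edgeR; an asterisk marks an adjusted p below 0.05. The rows for Con at 48 h and for the V580 days against E12.5_GC are called throughout in one direction, as with 1.34 for Insig1 in the first, whereas the stage rows hold both signs.

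Of the 4 V580 days sampled, day 4, the first, had the highest mean FPKM and day 8 the lowest for each of the 7 enzymes among the members, although not every step between was called. Idi1 was higher still in V580 at 48 h, at a mean of 21.5 FPKM against 15.8 on day 4. Hmgcs1 stood at 74.4, 75.6 and 74.8 FPKM on day 4, 55.1, 56.2 and 56.3 on day 6, 40.9, 40.2 and 40.5 on day 8, and 43.1, 44.4 and 45.2 on day 10. No library of one day overlapped another day. It fell by 0.42 on the log2 scale from day 4 to day 6 and by 0.45 from day 6 to day 8 (adjusted p = 4.31e-05 and 2.9e-05, limma). Dhcr7 fell most, from 25.2, 23.96 and 22.3 FPKM to 12.7, 12.4 and 12.46 on day 6 (log2 -0.88 ± 0.09, 0.545 of the day 4 value, adjusted p = 1.12e-06, limma), and went on to 11.0, 9.65 and 8.91 on day 8. Fdft1 fell to 0.704, Lss to 0.705 and Idi1 to 0.748 of the day 4 value by day 6. Thus 5 of the 8 were called lower on day 6, where 23.0% of all genes were, and Sqle (-0.17), Cyp51 (-0.11) and Insig1 (0.03) were not called. From day 6 to day 8, 7 were called lower, where 20.9% of all genes were, and Fdft1 (-0.22) was not. Insig1 among the 7 (-0.22) lost its call without day 6 replicate 3 (-0.22) or without day 8 replicate 2 (-0.20) or 3 (-0.22). From day 8 to day 10, 3 were called higher, Insig1 (0.36, adjusted p = 0.00108), Dhcr7 (0.39, adjusted p = 0.00312) and Cyp51 (0.24, adjusted p = 0.00672, limma), where 19.5% of all genes were, and with all 31 libraries in one model 6 were.

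Insig1 had its highest mean on day 10. It stood at 46.1, 42.6 and 41.2 FPKM on day 4, 44.0, 43.9 and 44.2 on day 6, 39.0, 36.5 and 37.4 on day 8, and 49.4, 46.6 and 49.6 on day 10. Its highest group in the whole table was therefore day 10, and the day 4 and day 6 libraries overlapped. Cyp51 stood at 49.6, 50.1 and 48.8 FPKM on day 4 and 44.9, 46.7 and 46.1 on day 6 before 36.0, 32.0 and 32.8 on day 8. Of the other 14 enzymes, 8 were called lower on day 6 and 12 on day 8 and none higher at either step, led on day 6 by Mvd (-0.72), Pmvk (-0.71) and Tm7sf2 (-0.69 ± 0.07) and on day 8 by Acat2 (-0.66), with Lbr (-0.57) among the others. In the uptake list the VLDL receptor gene Vldlr rose by 0.82 ± 0.07, 1.06 ± 0.07 and 0.53 ± 0.07 over the 3 steps. Srebf2 was called lower on day 6 (-0.28) and higher on day 10 (0.32). The interstitial markers summed to 67.91 to 78.9 FPKM on day 4, 174.1 to 182.2 on day 6, 507.9 to 645.0 on day 8 and 1315 to 1623 on day 10. The gonadal somatic markers summed to 31.28 to 33.44, 85.03 to 92.05, 132.3 to 136.3 and 121.5 to 124.0, although Nr5a1 and Lhx9 among them reached at most 0.0828 and 0.166 on any day. The part of these shifts in the levels of the 8 genes was not tested.

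Every V580 day held more of all 8 genes than the E12.5 gonadal cells. Fdft1 stood at 11.3, 13.52 and 9.27 FPKM in E12.5_GC and 40.5, 37.4 and 36.7 on day 4 (3.20-fold, log2 1.68 ± 0.10, adjusted p = 9.64e-10, limma). Dhcr7 was 3.19-fold higher on day 4 and Insig1, at 23.3, 19.8 and 19.8 FPKM in E12.5_GC, 2.02-fold (adjusted p = 3.9e-09, limma). All 8 were called on each of days 4, 6, 8 and 10, where 37.2%, 35.0%, 32.6% and 36.3% of all genes were called higher, and the members' medians were 1.42, 1.04, 0.70 and 0.86. The smallest differences were those of Hmgcs1, which stood at 37.0, 37.8 and 32.4 FPKM in E12.5_GC, with 0.18 on day 8 (adjusted p = 0.0151) and 0.30 on day 10 (adjusted p = 0.000337, limma), and the day 8 call was lost with median centring (0.16). No omission of 1 library removed any of the calls against E12.5_GC. These 4 comparisons share the E12.5_GC libraries. Of the other enzymes 13, 12, 10 and 11 of 14 were called higher, with Lbr (1.94 ± 0.12) and Msmo1 (1.86 ± 0.09) leading on day 4, and Srebf2 was 0.95 ± 0.07 higher on day 4. In the uptake list Stard4 was 0.91 ± 0.11 higher on day 4, and on day 10 Vldlr had the largest difference of its list (2.40 ± 0.07). The endocytic receptor gene Lrp1, in contrast, was 0.89 ± 0.17 lower on day 4. The E12.5_GC libraries also carried red blood cell transcripts, with the 2 of 5 erythroid markers in the table, Hba-a1 the more abundant, at 4108, 1577 and 982.5 FPKM and no more than 0.739 elsewhere. These took a share of the FPKM of every gene in those libraries, and their part in the differences was not tested.

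**Figure D3:**
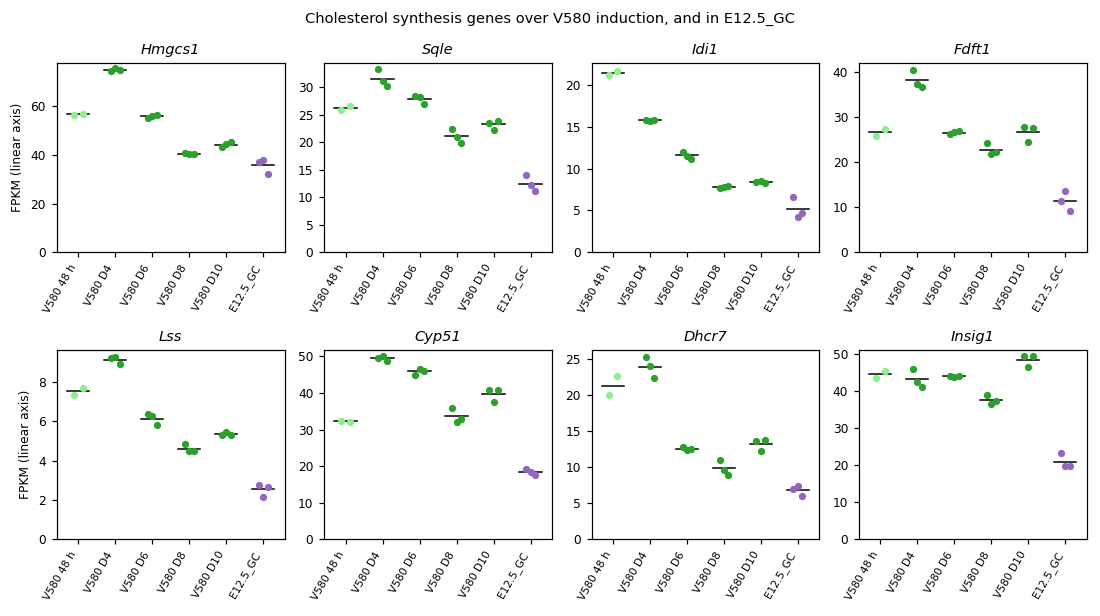
FPKM (vertical axis, linear, starting at 0) of the 8 genes in V580 cells at 48 h (2 libraries) and on days 4, 6, 8 and 10 and in E12.5_GC (3 libraries each); points are libraries and bars are group means. Day 4 is the highest group for Hmgcs1, Fdft1, Lss, Cyp51, Dhcr7 and Sqle among those shown, Idi1 is highest at 48 h and Insig1 on day 10, and E12.5_GC is lowest for all 8.

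From 48 h to day 4 of V580 the members again parted, with the reservation that time and experiment cannot be told apart in this comparison. Idi1 went down, from 21.3 and 21.8 FPKM to 15.9, 15.7 and 15.8 (log2 -0.42 ± 0.09, adjusted p = 0.000258, limma), 1 of 8 where 34.7% of all genes were called lower. Cyp51 went up, from 32.4 and 32.2 FPKM to 49.6, 50.1 and 48.8 (0.60, 1.52-fold, adjusted p = 1.8e-10, limma), and so did Fdft1 (0.50), Hmgcs1 (0.40), Sqle (0.26) and Lss (0.25), 5 of 8 where 39.4% were called higher. Dhcr7 (0.16) and Insig1 (-0.04) were not called, and Dhcr7 was called without V580 48 h replicate 2 (0.24) or without day 4 replicate 3 (0.20). The uptake list had 10 of 11 called higher, with the lysosomal lipase gene Lipa (1.74), Lrp1 (1.17) and Npc2 (1.09) in front.

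Over the 13 groups of the FPKM table the order of levels differed between members. Hmgcs1 was highest in V580_D4 (74.9 ± 0.59 FPKM, SD, n = 3) and lowest in AM580 at 24 h (21.2 ± 0.87, n = 2), and within that order only AM580 and Con at 48 h, and Con and V580 at 24 h, had overlapping libraries. Insig1 ran from 48.5 ± 1.69 (V580_D10, n = 3) down to 11.7 ± 0.04 (AM580 at 24 h, n = 2), and V580 at 48 h, V580_D6 and V580_D4 overlapped in a chain below the top. Idi1 was highest in Vc at 48 h (25.8 ± 0.07, n = 2) and lowest in E12.5_GC (5.19 ± 1.26, n = 3). Sqle was also highest in Vc at 48 h (34.2 ± 0.46, n = 2), and Fdft1, Lss, Cyp51 and Dhcr7 were highest in V580_D4. E12.5_GC was the lowest group for Sqle, Idi1, Fdft1 and Lss, and AM580 at 24 h for Hmgcs1, Cyp51, Dhcr7 and Insig1. FPKM divide by the length of a gene model, so the order of the members below depends on those lengths. On day 4, for example, Lss had more reads recovered from FPKM (2264, 2473 and 2304) than Idi1 (1268, 1364 and 1327), although its FPKM were lower. In V580_D4 the order of means was Hmgcs1, Cyp51 (49.5 FPKM), Insig1 (43.3), Fdft1 (38.2), Sqle (31.5), Dhcr7 (23.8), Idi1 (15.8) and Lss (9.13), and Lss was the lowest member in each of the 13 groups.

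Among the gonad stages the 8 genes did not move as a block. Fdft1 and Dhcr7 were highest in the adult ovary. Fdft1 stood at 73.1 and 73.0 CPM at E12.5, 75.1 and 70.7 in E13.5 libraries, 57.9 and 58.5 in E16.5 libraries and 133.9 and 131.4 in P6w libraries. Dhcr7 stood at 37.9 and 45.8, 41.0 and 51.2, 36.6 and 32.7, and 88.3 and 82.8 CPM in the same order. In both genes the P6w libraries lay above all 6 fetal libraries, 2.55-fold (log2 1.35 ± 0.12, adjusted p = 1.49e-07) and 2.76-fold (1.47 ± 0.15, adjusted p = 7.66e-07) above E16.5 by edgeR. Hmgcs1, at the entry of the pathway, went the other way. It stood at 198.9 and 213.8 CPM at E12.5, 134.7 and 134.0 in E13.5 libraries, 183.3 and 214.2 in E16.5 libraries and 89.5 and 108.7 in P6w libraries, below every fetal library (log2 -0.85 ± 0.14 against E16.5, adjusted p = 8.54e-05, edgeR). Per kilobase of gene model, Hmgcs1 was the most abundant member at E12.5 (43.3 and 46.5 CPM per kb) and Fdft1 at P6w (31.7 and 31.1), and Idi1 (0.867 to 2.07) and Lss (0.770 to 1.75) were the least abundant throughout.

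Insig1 peaked at E16.5. Its levels were 22.6 and 24.8 CPM at E12.5, 16.7 and 18.4 in E13.5 libraries, 46.8 and 78.6 in E16.5 libraries and 25.3 and 26.0 in P6w libraries. Both E16.5 libraries were above all others, and they differed from each other by 1.68-fold. The rise over E13.5 was 2.99-fold (log2 1.58 ± 0.22, adjusted p = 2.47e-05) and that over E12.5 2.78-fold (1.48 ± 0.21, adjusted p = 8.19e-05), and the fall to P6w was to 0.455 (-1.14 ± 0.22, adjusted p = 0.000384, edgeR). E16.5 replicate 1 carried the lane tag of the younger stages in its description and replicate 2 that of P6w. Without E16.5 replicate 2, within the first tag, Insig1 at E16.5 was above E13.5 by 1.11 (adjusted p = 4.71e-06) and above E12.5 by 1.00, and without replicate 1, within the other, P6w was below E16.5 by 1.499 on the log2 scale (edgeR). No tag was carried by both P6w and E12.5 libraries, so tag and stage cannot be told apart in that comparison. The E16.5 replicates also differed by 1.79-fold for Idi1 and 1.52-fold for Cyp51. The 4 mast cell markers, with Cma1 and Tpsb2 the most abundant, summed to 583.9 and 551.2 CPM at E16.5 and to at most 24.4 elsewhere, the 6 interstitial markers to 3116 and 2632 against at most 902.9, and the 6 germ cell markers, with Dazl the most abundant, to 138.9 and 169.6 against at most 26.2, and the part of these cells in the Insig1 level was not tested.

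**Figure D4:**
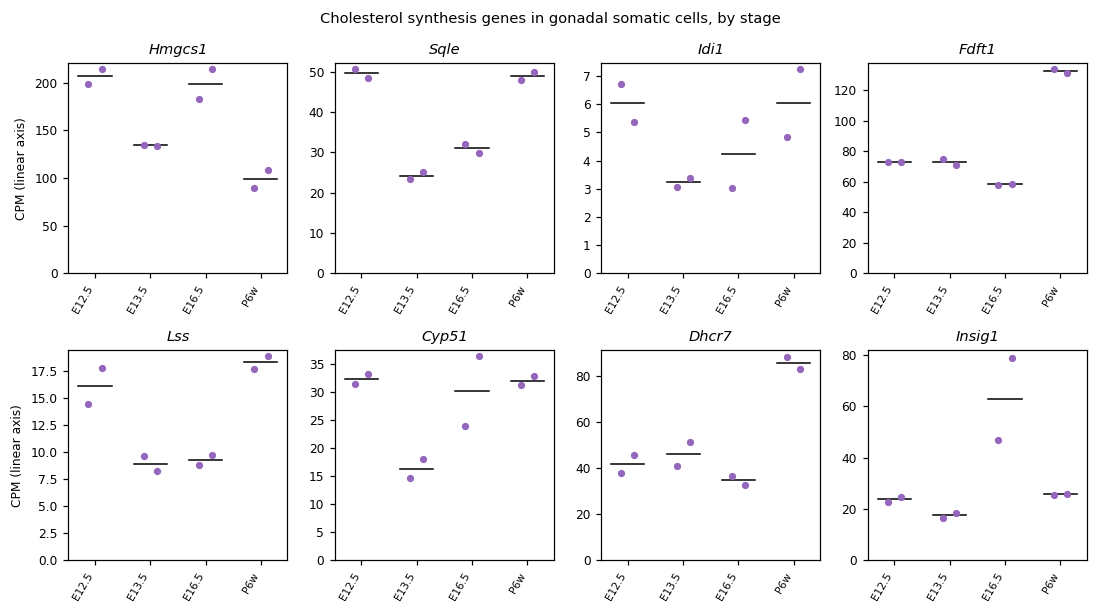
CPM (vertical axis, linear, starting at 0) of the 8 genes in GSCs at P6w, E16.5, E13.5 and E12.5, scaled by library total alone; points are the 2 libraries of a stage and bars their mean. Fdft1 and Dhcr7 are highest at P6w, Hmgcs1 is lowest there (89.5 and 108.7 CPM), and Insig1 is highest at E16.5 (46.8 and 78.6 CPM), where its 2 libraries are far apart.

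Between E12.5 and E13.5, Sqle fell from 50.8 and 48.4 CPM to 23.3 and 25.1 (log2 -0.71 ± 0.14, adjusted p = 0.000708, edgeR) and was the only member called under every omission of a library. Cyp51, at 31.5 and 33.3 CPM against 14.6 and 18.1, was called lower (-0.66 ± 0.20, adjusted p = 0.0155), except without E12.5 replicate 2 (-0.63) or E13.5 replicate 1 (-0.50). Lss (-0.52) was called lower and Fdft1 (0.33) and Dhcr7 (0.47) higher. These counts of 3 lower and 2 higher stood beside 22.1% and 23.8% of all genes, and the members' median was -0.40 beside 0.03 over all genes. Lss lost its call under each omission of a library (-0.66 to -0.38), as did Fdft1 (0.29 to 0.39), and Dhcr7 lost it without E12.5 replicate 1 (0.34) or E13.5 replicate 2 (0.32). The direction depended on the scaling here. Fold changes used TMM factors, which adjust library totals for composition. Scaled by library totals alone, the median gene moved by -0.32, 0 members were called higher and 5 lower (Hmgcs1, Sqle, Idi1, Lss and Cyp51), and Fdft1 turned to -0.0027. The erythroid markers, with Hbb-y the most abundant, summed to 23492 and 21806 CPM at E13.5 against 14123 and 12985 at E12.5, the 6 hepatocyte markers, among them Alb and Afp, to 154.8 and 160.3 CPM against 5.123 and 3.599, and the 4 Sertoli markers, with Sox9 the most abundant, to 17.70 and 18.63 CPM against 61.89 and 61.79. The part of these markers in the differences was not tested. Across 16169 genes the log2 fold change of this comparison had a Spearman correlation of -0.494 with gene length and 0.278 with GC content, and with a GC trend removed 0 members were called higher. Lss turned to 0.10 once a trend on gene length was removed. The other enzymes had 7 of 14 called higher and 3 lower, with Ebp (0.90) and Mvk (0.80) up and Hsd17b7 (-1.01) and Acat2 (-0.57) down, while Vldlr (-1.33) fell.

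From E13.5 to E16.5, 2 members were called higher, Insig1 and Cyp51 (0.62 ± 0.20), and 2 lower, Dhcr7 (-0.68 ± 0.15) and Fdft1 (-0.59 ± 0.12), beside 28.7% and 25.4% of all genes. The Cyp51 call was lost without E13.5 replicate 1 (0.47) and without E16.5 replicate 2 (0.25), whereas Dhcr7 (-0.63) and Fdft1 (-0.63) were still called within the first lane tag, and Hmgcs1 was called higher without E16.5 replicate 1 (0.46). Across genes the log2 fold change correlated at 0.335 with length and -0.250 with GC content (Spearman, 16169 genes). With a GC trend removed Cyp51 was not called (0.42, adjusted p = 0.105, edgeR), which left 1 member called higher, and with a length trend removed Lss (-0.79, adjusted p = 0.00592, edgeR) was called lower too, 3 in all. By library totals alone the median gene moved by 0.27, and Hmgcs1 and Sqle were called higher as well. Among the other enzymes 4 were called higher and 8 lower of 14, with the mevalonate enzymes Mvd (-1.85 ± 0.15) and Mvk (-1.36) falling and Hsd17b7 (1.69) and Msmo1 (1.00 ± 0.16) rising. From E12.5 to E16.5 Insig1 alone was called higher (20.5% of all genes), and Sqle (-0.61, adjusted p = 0.00263) and Lss (-0.73, adjusted p = 0.00886, edgeR) were called lower (17.1%). Lss was not called without E12.5 replicate 2 (-0.59), and without E16.5 replicate 2, within the first lane tag, Idi1 (-0.97) and Fdft1 (-0.31) were called lower beside Sqle (-0.60) and Lss (-0.86), 4 in all.

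From E16.5 to P6w, 4 members were called higher, Dhcr7, Fdft1, Lss (1.14 ± 0.20) and Sqle (0.82 ± 0.14), beside 26.3% of all genes, and Hmgcs1 and Insig1 were called lower, beside 29.8%. The members' median was 0.75 and that of all genes -0.04. Without E16.5 replicate 1, within the lane tag, the same 6 were called, Dhcr7 at 1.503, Fdft1 at 1.30, Lss at 1.02, Sqle at 0.83, Hmgcs1 at -0.995 and Insig1 at -1.499. Without E16.5 replicate 2, Idi1 (1.19) and Cyp51 (0.62) were called higher too, 6 in all. Against E12.5, Fdft1 (1.09 ± 0.12) and Dhcr7 (1.26 ± 0.15) were called higher and Hmgcs1 (-0.83 ± 0.14) lower at P6w, 2 and 1 of 8 beside 25.4% and 27.5% of all genes. With only these 2 stages in the fit 4 were called higher, as Lss (0.41, adjusted p = 0.0266) and Insig1 (0.34, adjusted p = 0.0316, edgeR) passed too. Of the other enzymes 10 of 14 were called higher than at E16.5 and 1 lower, with Sc5d (2.00 ± 0.16) and Nsdhl (1.58 ± 0.15) up and Lbr (-1.09 ± 0.22) down. The uptake list had 4 of 11 called higher and 1 lower, with the HDL receptor gene Scarb1 (2.87 ± 0.13) and Vldlr (2.27 ± 0.26) up and Mylip (-0.89 ± 0.28), which marks lipoprotein receptors for degradation, down. Scap (2.30 ± 0.12), the escort of SREBP, Srebf1 (1.10 ± 0.19) and Srebf2 (0.73 ± 0.15) rose. All 6 steroid synthesis genes were called higher, among them Cyp11a1 (8.67 ± 0.18), which makes the first steroid from cholesterol. The erythroid markers, with Hba-a1 and Hbb-bt the most abundant at E16.5, summed to 8858 and 6677 CPM at E16.5 and 142.5 and 163.1 at P6w, the interstitial markers to 3116 and 2632 against 295.1 and 324.8, and the Leydig markers, with the steroid synthesis gene Hsd3b1 the most abundant, to 137.1 and 149.2 against 7053 and 6870. The part of these markers in the differences was not tested. By library totals alone the median gene moved by -0.16 against E16.5 and by -0.23 against E12.5.

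Over the 31 FPKM libraries, 3 of them of E12.5_GC, Pearson correlations between pairs of members had a median of 0.79 over 28 pairs, from 0.25 (Idi1 and Cyp51) to 0.95 (Hmgcs1 and Dhcr7). With the mean of the standardized members, Dhcr7 correlated at 0.96, Lss at 0.95 and Idi1, the least alike, at 0.71. Over the 8 stage libraries the median was 0.37, from -0.88 to 0.96, and Hmgcs1 (-0.07) and Insig1 (0.22) were least like the mean; the medians of the tables were not compared by a test. Of 10840 genes outside the members, those most like their mean in the FPKM table included Msmo1 (0.975), Sord (0.97), Tmem30b (0.952), Hpn (0.934), Mapk12 (0.930), Hip1r (0.923), Sh3bgrl2 (0.923), Nsdhl (0.920) and Mapk13 (0.910), with Msmo1 and Nsdhl enzymes of the pathway. The median correlation was 0.83 over 13 other enzymes, 0.26 over 11 uptake genes and -0.01 over all genes. In the stage table none of the 10 most alike, from Morf4l2 (0.994) and Tmcc1 (0.982) to Foxk2 and Trmt10c (0.967 each), was on the lists used here. The points share libraries, depth and the groups of the design, and no test was made.

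In the single-cell table of V580_D6 all 8 genes were detected. Of 15412 barcodes, all distinct, 15315 cells were kept (median 9281 UMIs, unique molecular identifiers, a cell), and 12 clusters were made. The study's text says that these cells were sequenced more than once, but the deposited table is labelled as a single sample, its barcodes all end in the same suffix and nothing in it maps cells to runs, so whether it pools runs cannot be told. It was therefore treated as 1 sample and no test was made, and intervals are exact 95% limits for counting error only. Over all cells Hmgcs1 had 104 CPM (103 to 106) with a UMI in 43.7% of cells, Insig1 54.9 CPM (53.8 to 56.1) in 24.995%, and Lss, the lowest, 9.76 CPM (9.28 to 10.2) in 8.72%. No cell type that should lack these genes was at hand to measure free RNA.

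Insig1 varied most between clusters, 9.53-fold from the highest to the lowest, where the other members varied 2.26-fold (Fdft1) to 4.70-fold (Lss). The median over 8709 genes was 3.62-fold, but with a small constant added to both levels, which lowers it. It is therefore not on the scale of the members. Some extremes lay in small clusters, as the lowest Idi1 in cluster 4 (26 cells). Insig1 was highest in cluster 9, at 195 CPM (189 to 201), then in cluster 10 at 151 (128 to 177) and cluster 7 at 109 (98.6 to 121), and the other 9 clusters held 20.4 to 40.8. In cluster 9 (890 cells) 7 of the 8 extraembryonic endoderm markers were over 2-fold higher than in the other cells, but none was among its 10 leading genes, which were headed by Rbp4, Srgn and Pitx1 and held the granulosa marker Fst, so it is left unnamed. Cluster 10 (278 cells) had 5 of the 8 and was led by Lama1. Cluster 7 (986 cells), led by Cited1 and S100g, had 2 and is left unnamed. Cluster 9 had the deepest cells (median 23377 UMIs), and clusters 7 and 10 shallow ones (2384.5 and 2387). With each cell thinned to 2000 UMIs, which left out 3800 cells, Insig1 was at 207, 152 and 109 CPM in clusters 9, 10 and 7 and at 16.7 in cluster 3, the lowest with a UMI. After thinning, 32.0% of cluster 9 cells had an Insig1 UMI, against 3.24% of cluster 3 cells. Unthinned shares were 90.8% and 23.6%.

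Hmgcs1 had another order. It was highest in the neuron-like cluster 11 (66 cells, 6 of 6 markers), at 299 CPM (258 to 345). Unthinned, it was lowest in clusters 10 (67.9) and 9 (70.1), the 2 clusters richest in Insig1. Thinned, Hmgcs1 was at 265 CPM in cluster 11, from 49 cells, and lowest in cluster 9, at 59.0. Cluster 10 was then at 87.7 CPM, from 30 UMIs, above clusters 7 (80.5) and 8 (84.3), so its low place did not hold. Sqle (81.5 CPM), Idi1 (62.7), Fdft1 (97.2), Cyp51 (105) and Dhcr7 (37.6) were also highest in cluster 11. Thinned, Sqle was at 61.2 CPM in cluster 11, from 6 UMIs, against 58.8 in cluster 6. Idi1 was at 51.0, from 5 UMIs, against 52.6 in cluster 4, from 2 UMIs, so both ranks are uncertain. The 8 genes summed to 735 CPM (670 to 805) in cluster 11, 489 (480 to 499) in cluster 9, 449 (409 to 493) in cluster 10 and 302 to 407 in the other 9. Cluster 0, mesothelial-like by 3 of 5 markers, held 386 and the interstitial-like cluster 2, with 4 of 6, held 349. In the uptake list, Npc1, which carries cholesterol out of lysosomes, was at 232 CPM in cluster 10 and 77.8 in cluster 9 against 14.3 to 55.1 elsewhere. Apoe, an apolipoprotein of cholesterol transport, was at 1744, 1939 and 1391 CPM in clusters 9, 10 and 7 and at most 595 elsewhere, and Soat1, which esterifies cholesterol, at 334 and 395 CPM in clusters 9 and 10 and at most 148 elsewhere. Clusters 5 and 6 had shallow cells (median 1456 and 2016.5 UMIs) and cluster 6 a median mitochondrial share of 15.97%, so their levels may not stand for a cell type. Doublets were not removed.

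**Figure D5:**
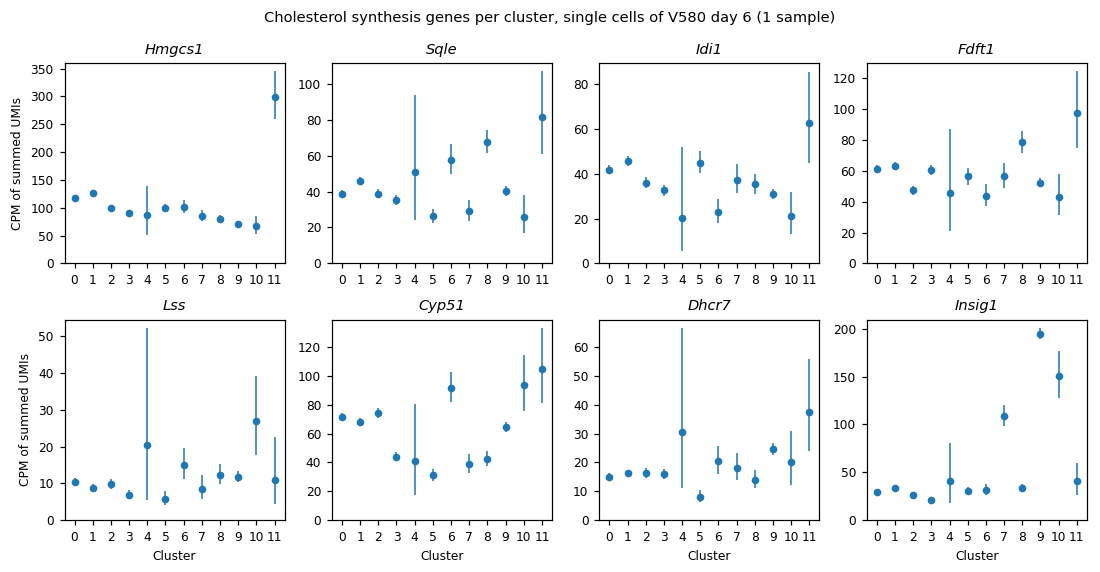
CPM of summed UMIs (vertical axis, linear, starting at 0) of the 8 genes in the 12 clusters of the V580_D6 single-cell sample; bars are exact Poisson 95% intervals for counting error only. Insig1 stands out in clusters 9 (195 CPM), 10 and 7, and Hmgcs1 in cluster 11 (299 CPM).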

How the data were processed

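Deposited files were used as the authors made them. For the gonad stages the authors deposited raw read counts per gene (HISAT2 and featureCounts, mm10), for the ESC-derived cells and E12.5_GC a table of FPKM values, whose tool is not given in the sources used here (the submitters' notes also list Trim Galore, FastQC, SAMtools and RSEM, without versions), and for V580_D6 cells deposited UMI counts per cell. Another 10 columns of values matched no sample and were not used, and columns of the authors' own comparisons were not used.

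The 8 members and all gene lists were chosen with earlier results of these data known. Counts were tested with edgeR 4.0.16 (quasi-likelihood, TMM, filterByExpr, 16398 genes, 8 libraries), giving 5 stage comparisons. FPKM were tested with limma 3.58.1 (trend) on log2(FPKM + 1), with a minimum of 1 FPKM in 2 of 16 treatment libraries (10644 genes), in 3 of 15 libraries of days and E12.5_GC (11512 genes), and in 2 of all 31 libraries for V580_D4 against V580 at 48 h (11921 genes). Calls needed a Benjamini-Hochberg adjusted p below 0.05. FPKM values of 13033 genes (95.3%) came out as whole reads in every library within 0.1 reads, which gave the estimated depths. The named genes were the 8 members, up to 3 called genes of each list with the largest changes in each direction, Star and Cyp11a1, and the 10 genes most correlated with the members' mean, and some genes of the lists are counted but not reported here.

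Cells were kept at 200 genes or more and up to 40% mitochondrial counts, as the study states, and clustered with scanpy 1.11.5 (2000 variable genes, 20 principal components, 20 neighbours, Leiden resolution 0.5). Alternatives were DESeq2 1.42.0, other scalings, filters, pseudocounts, fits and clusterings, a replicate block and the omission of each library. Tested on simulated data, edgeR recovered 9.88%, 75.9% and 100% of genes changed 1.5-, 2- and 4-fold for P6w against E12.5 (15932 genes, 1 false call), and limma 98.5%, 98.5% and 100% for V580 against Con at 48 h (10542 genes, 7 false calls) and 79.4%, 100% and 100% for V580_D6 against E12.5_GC (11512 genes, 12 false calls). In the limma simulations the changes were placed only in genes above a set mean level, so recovery for lower genes, such as Lss, was not measured. R was 4.3.3 and Python 3.11.15.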

Additional observations from a re-analysis of the deposited data

Results flagged for a closer look

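The effect of AM580 against Con differed between 48 h and 24 h, by a limma interaction term, for Sqle (difference of log2 effects -0.21), Cyp51 (0.49) and Dhcr7 (0.35). The effect of V580 against Con differed in the same way for Hmgcs1 (0.30), Sqle (-0.22), Cyp51 (0.58), Dhcr7 (0.56) and Insig1 (0.46). For Sqle both differences depended on single libraries, named with the treatment results, and the others were called under every omission of 1 library.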

How the results depend on the processing

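Among 3232 values of a single member under an alternative, 2981 kept their direction and their side of the threshold, 200 lost a call, 48 gained one and 3 reversed, and where no value below shows it the cause was not tested. The reversed values were Fdft1 in E13.5 against E12.5 by library totals alone (-0.0027), Lss in the same comparison with a length trend removed (0.10) and Insig1 in V580_D4 against V580 at 48 h with quantile normalization (0.19).

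Counts of members called moved as follows (main count in parentheses). For E13.5 against E12.5, the count called higher was 0 (2) by library totals alone or with a GC trend removed and 1 without a filter on low counts, and the count called lower was 5 (3) by library totals alone. For E16.5 against E13.5, the count called higher was 4 (2) by library totals alone, and 1 with only the 2 stages compared or with a GC trend removed. For P6w against E12.5 with only the 2 stages compared, 4 (2) were called higher. With all 31 libraries in one model, the counts were 1 (4) lower for AM580 at 24 h, 0 (1) lower for V580 at 24 h, 1 (2) higher for AM580 at 48 h, 4 (8) higher for V580 against AM580 at 48 h, 1 (2) higher and 0 (1) lower for the change in the AM580 effect, 0 (1) lower for the change in the V580 effect and 6 (3) higher for day 10 against day 8. With quantile normalization, 4 (2) were higher with AM580 at 48 h, 4 (2) higher and 0 (1) lower for the change in the AM580 effect and 0 (1) lower for that in the V580 effect. With median centring 1 (0) was lower with V580 at 48 h, and by edgeR on recovered reads, chosen after seeing the data, 0 (1) was lower with V580 at 24 h.

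A threshold of at least 2-fold removed most calls by construction. It left 0 of 8 higher and 0 lower for E13.5 against E12.5, 1 and 0 for E16.5 against E13.5, 0 lower for E16.5 against E12.5, 1 lower for P6w against E16.5, 0 lower for P6w against E12.5, 0 in every treatment comparison and interaction with a call, 3 for Con at 48 h, 0 for each step between days, and 0 on day 8 and 3 on day 10 against E12.5_GC.

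Leaving out 1 library at a time gave 0 to 1 higher and 1 to 2 lower for E13.5 against E12.5, 1 to 3 higher for E16.5 against E13.5 and 1 to 4 lower for E16.5 against E12.5. The ranges were 1 to 2 lower for AM580 and 0 to 0 lower and 0 to 1 higher for V580 at 24 h, 3 to 5 higher for Vc at 48 h, 1 to 2 higher and 2 to 2 lower for AM580 at 48 h, 5 to 7 higher for V580 against AM580 at 48 h, and 0 to 1 lower for the changes in the AM580 and V580 effects. Insig1 in cluster 9 was at 207 CPM thinned to 2000 UMIs, against 195.

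Over all genes, the share of calls that were higher was 26.7% by library totals against 51.9% for E13.5 against E12.5, 68.9% against 53.1% for E16.5 against E13.5 and 33.9% against 47.99% for P6w against E12.5, and with median centring 37.4% against 50.4% for V580 against AM580 at 24 h and 37.7% against 51.2% for Vc at 48 h. With all 31 libraries in one model, 512 genes were called in place of 1443 for Vc and 796 in place of 1580 for AM580 at 24 h, and 493 in place of 1324 for Vc and 939 in place of 2046 for V580 against AM580 at 48 h.

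Deviations of same-numbered replicates from their group means correlated at -0.04 to 0.07 in the stages (0 of 6 pairs above 0.1), -0.42 to 0.21 over the treatments (14 of 56), -0.43 to 0.39 over days and E12.5_GC (9 of 30) and -0.56 to 0.47 over all 31 libraries (30 of 166), so the numbers were not taken to pair the libraries. With the replicate block the counts were 3 (2) higher for E16.5 against E13.5, 2 (3) higher for Vc and 3 (4) lower for AM580 at 24 h, 5 (6) higher for Vc at 48 h, 6 (5) lower for day 6 against day 4 and 6 (5) higher for V580_D4 against V580 at 48 h, and equal elsewhere.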

Other observations

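Among 8 genes of fatty acid synthesis and desaturation, day 4 of V580 held more of all 8 than E12.5_GC (limma, where 37.2% of all genes were called higher), led by the desaturase genes Scd1 (log2 3.80 ± 0.14), Scd2 (1.30 ± 0.10) and Fads2 (1.08 ± 0.08). From day 4 to day 6, 6 of the 8 were called lower (23.0% of all genes) and none higher, among them Scd1 (-0.97 ± 0.14) and the elongase gene Elovl6 (-0.87 ± 0.11), and from day 6 to day 8, 7 were called lower (20.9% of all genes) and none higher, with the fatty acid synthase gene Fasn first (-0.73 ± 0.08). Elovl6 was called higher with AM580 at 24 h (0.58 ± 0.05) and lower at 48 h (-0.39 ± 0.05), and the difference of the effects was -0.98 ± 0.07.

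Soat1, which esterifies cholesterol for storage, was called lower with V580 than in Con at 24 h (-0.68 ± 0.05) and 48 h (-0.79 ± 0.05), and at 48 h the V580 effect was lower than the sum of the Vc and AM580 effects by -0.42 ± 0.06 on the log2 scale (limma). Apoe, an apolipoprotein, was called higher with AM580 at 48 h (0.46 ± 0.05) and lower at 24 h (-0.18 ± 0.05). In the gonad, Nceh1, which hydrolyses cholesteryl esters, was called higher at P6w than at E16.5 (3.59 ± 0.25), as was the LXR alpha gene Nr1h3 (2.50 ± 0.35), while the cholesterol exporter gene Abcg1 was called lower (-1.35 ± 0.16, edgeR). Star, which carries cholesterol into mitochondria, was called lower in V580_D4 than in E12.5_GC (-1.20 ± 0.14). Fdps, an enzyme of the list of other synthesis genes, was at 0.145 to 1.15 FPKM in the FPKM table but at 119 to 424 CPM in the stages. How either table assigned reads that match more than 1 place was not stated, so its values are uncertain.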
